A study of Mus musculus with 16 samples.

Results

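Haemoglobin and erythroid transcripts were described in mouse gastrocnemius, the large calf muscle, by taking every non-control array probe whose gene name was Hba-a1, Hba-a2, Hbb-b1, Hbb-b2, Alas2 or Redrum. All 6 genes were on the array, with 1 probe each, out of 34650 gene names in all. All 6 probes passed the filter on dim probes, which asked for a signal well above background throughout 1 or more of the 6 groups. They were well above background on all 16 arrays, apart from the Hbb-b1 probe, which was so on 15 (not on whole muscle of Het mouse 2). The genes were chosen by their measured Het against WT differences in whole muscle, polysomes and polysome loading. Those differences of the 6 genes are therefore given as values only, and tests of these genes are given for comparisons that did not enter the choice. The comparison lists of other genes were chosen with earlier results of these data known. Their genes were tested in every comparison, so their p-values are not independent of that choice.

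The mice were male C57BL6 littermates of 8 to 16 weeks, 3 wild-type mice (WT, Eif6+/+) and 3 heterozygous mice (Het, Eif6+/-), which carry 1 functional copy of Eif6, a factor that binds the large ribosomal subunit. The mice had no treatment. The loss of the Eif6 copy was not limited to muscle, so blood cells of the Het mice carried it too. From each muscle came whole-muscle RNA, RNA of the pooled gradient fractions with several ribosomes per transcript (polysomes) and RNA of the fraction with 1 ribosome (monosomes). There were 3 arrays per genotype for whole muscle and for polysomes, and 2 per genotype for monosomes (WT mice 1 and 2, Het mice 1 and 3), 16 in all. A signal below is the log2 of the processed spot intensity after quantile normalization over the 16 arrays, so a difference of 1 is a doubling.

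Adult haemoglobin is a tetramer of a pair of alpha chains, encoded by Hba-a1 and Hba-a2, and a pair of beta chains, each holding a haem group. Alas2 encodes the erythroid form of 5-aminolevulinate synthase, the first enzyme of haem synthesis, whereas Alas1 encodes the form used by other tissues. Redrum is a non-coding RNA of erythroid cells. Red cells lose their nucleus but enter the blood as reticulocytes that still hold ribosomes and globin mRNA, so a muscle taken with its blood holds these transcripts. In such bulk RNA, fewer red cells and less RNA per red cell cannot be told apart.

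The position of each probe in its transcript differed, and the probe sequences are shown because they decide which globin genes a signal can come from and which end of the transcript it reads. The Hba-a1 probe lay at chr11:32183955-32184014 (mm9, plus strand), beginning at base 161 of the transcript. The Hba-a2 probe lay at chr11:32197245-32197304 (plus strand) and began at base 497. Both alpha globin probes list the accessions of both alpha genes in the array file, so they are read as alpha globin at an inner and at a 3′ position, not as 2 separate genes. Counts out of 6 below score each of these probes, so alpha globin enters such counts at both. The Hbb-b1 probe lay at chr7:110976379-110976438 (minus strand) and began at base 5, at the 5′ end. The Hbb-b2 probe, beginning at base 215, is unmapped in the array file and also lists the Hbb-b1 accession. The Alas2 probe lay at chrX:147004993-147005052 (plus strand), beginning at base 1806. Only pieces of 30 bases are given for the probes outside the coding sequence, with capitals marking the polyadenylation signal (Hba-a2) and the start codon (Hbb-b1), and the Alas2 probe is given up to its stop codon in capitals:
Hba-a1 probe: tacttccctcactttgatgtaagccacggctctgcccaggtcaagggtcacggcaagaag
Hbb-b2 probe: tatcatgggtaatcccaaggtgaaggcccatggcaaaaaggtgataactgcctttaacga
Hba-a2 probe, piece: tcttggtctttgAATAAAgcctgagtagga
Hbb-b1 probe, piece: aaccccagaaacagacatcATGgtgcacct
Alas2 probe, piece: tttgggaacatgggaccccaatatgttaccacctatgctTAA

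The names Hbb-b1 and Hbb-b2 belong to a beta globin haplotype in which the adult genes are the major and minor chains. The RefSeq annotation of the C57BL/6J chromosome has Hbb-bs and Hbb-bt in their place. Against the RefSeq promoter windows (GRCm38.p6), which run 50 bases into the transcript, the Hbb-b1 probe differed from Hbb-bs at 0 of the 46 bases it shares with that window, and its match began at base 5 after the annotated start, the position given in the array file. Against Hbb-bt it differed at 7 of 45 bases. Of its 60 bases, 49 lie before the ATG. The separate Hbb-bt probe on the array is therefore reported beside the 4 haemoglobin probes, although it was not among the chosen genes.

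The 4 adult globin genes and Alas2 are known targets of GATA1, and the globin genes also of KLF1, factors that bind GATAA-like and CACCC-like sites. The 250 bases before the annotated start were searched on both strands for GATAA (the core bound by GATA factors), for CACCC (the core bound by Kruppel-like factors), for CCAAT (the CCAAT box) and for TATAA (the TATA box), and matches are in capitals below, where neighbouring or overlapping matches run together. The windows of Hba-a1 (chr11:32283422-32283671, plus strand), Hbb-bs (chr7:103827929-103828178, minus strand) and Alas2 (chrX:150547167-150547416, plus strand) are shown because the 3 genes stand for the alpha chain, the beta chain and the haem pathway:
Hba-a1: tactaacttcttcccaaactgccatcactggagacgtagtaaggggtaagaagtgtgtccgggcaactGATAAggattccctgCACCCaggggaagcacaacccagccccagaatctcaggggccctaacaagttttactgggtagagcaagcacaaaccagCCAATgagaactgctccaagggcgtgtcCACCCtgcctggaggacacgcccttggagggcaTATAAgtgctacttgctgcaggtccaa
Hbb-bs: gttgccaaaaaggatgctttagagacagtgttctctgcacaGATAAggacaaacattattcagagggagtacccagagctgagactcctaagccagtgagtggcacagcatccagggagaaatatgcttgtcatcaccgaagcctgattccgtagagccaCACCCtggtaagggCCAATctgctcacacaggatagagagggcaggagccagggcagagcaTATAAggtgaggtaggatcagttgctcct
Alas2: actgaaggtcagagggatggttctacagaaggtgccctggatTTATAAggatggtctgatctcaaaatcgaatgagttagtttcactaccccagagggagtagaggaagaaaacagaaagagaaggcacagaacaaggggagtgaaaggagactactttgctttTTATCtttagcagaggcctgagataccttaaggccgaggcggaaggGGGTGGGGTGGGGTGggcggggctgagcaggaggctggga

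All 5 windows examined (those of Hba-a2 and Hbb-bt included) held 1 GATAA match, against 22.6% of the 32851 RefSeq windows that held at least 1. CACCC occurred in all 5 and in 52% of all windows. TATAA stood 27 bases before the annotated start of Hba-a1 and 29 before that of Hbb-bs, and TATAA occurred in 22.8% of all windows. CCAAT was found in the 4 globin windows, with none in that of Alas2, and in 33.8% of all windows. The windows of Hba-a1 and Hba-a2 were offset by 3 bases and differed at 0 of the 297 bases they share. The letters are a description of the windows and not a measure of binding.

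Before the results, 2 arrays must be named. In 1171 genes with a pair of probes separated by 500 bases or more, the log2 signal nearer the 5′ end minus that nearer the 3′ end had a median of 0.60 on WT polysome 2 and 0.81 on WT monosome 2, and between -1.35 and -0.79 on the other 14 arrays. The 2 WT monosome arrays correlated at 0.782, whereas replicate arrays of the other 5 groups correlated at 0.89 to 0.987. The comparisons of the 6 genes that use these arrays, and the counts of list genes called, are given with and without them, whereas summed signals are over all arrays. Array brightness, the 75th percentile of the processed signal before normalization, ran from 12.7 to 150. Eif6 was lower in Het mice in every RNA kind with no overlap, by -0.93 in whole muscle, -1.32 in polysomes and -1.82 in monosomes (limma, adjusted p = 0.611, 0.516 and 0.0451), as the labels state.

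Alpha globin was high on the polysome arrays of WT mice. At the inner probe (Hba-a1) the whole-muscle signals were 13.83, 13.21 and 13.35 in WT mice 1, 2 and 3 and 13.72, 13.57 and 13.50 in Het mice 1, 2 and 3. Polysome signals were 14.43, 15.28 and 14.27 in WT and 13.69, 13.24 and 13.45 in Het mice. Monosome signals were 14.16 and 15.60 in WT mice 1 and 2, and 13.80 and 14.05 in Het mice 1 and 3. The genotypes overlapped in whole muscle and were apart in polysomes, where the lowest WT array lay above the highest Het array. WT polysome 2 and WT monosome 2 were the highest arrays of all.

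The 3′ alpha globin probe (Hba-a2) had the same order in polysomes. Its whole-muscle signals were 14.86, 14.63 and 15.39 in WT and 15.03, 15.30 and 15.15 in Het mice. Its polysome signals were 16.44, 17.17 and 15.84 in WT mice, and 15.24, 14.83 and 15.02 in Het mice. Its monosome signals were 16.55 and 17.25 in WT and 16.32 and 16.14 in Het mice. All 4 monosome arrays were thus above all 6 whole-muscle arrays. The WT polysome arrays also lay above all whole-muscle arrays, and the Het polysome arrays lay within the range of whole muscle.

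The beta globin probes behaved less alike. For Hbb-b2 the whole-muscle signals were 10.08, 9.29 and 9.70 in WT and 9.63, 9.77 and 9.52 in Het mice. Its polysome signals were 10.04, 11.64 and 9.93 in WT and 9.46, 9.04 and 9.67 in Het mice. Its monosome signals were 9.56 and 11.10 in WT and 9.50 and 9.77 in Het mice. The genotypes were apart in polysomes by a small gap, and the 2 highest values were again WT polysome 2 and WT monosome 2.

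The 5′-end probe (Hbb-b1) varied more between replicate arrays. Its whole-muscle signals were 7.78, 5.92 and 6.70 in WT mice, and 5.42, 4.60 and 5.66 in Het mice. Its polysome signals were 6.01, 8.22 and 6.72 in WT and 5.99, 5.99 and 6.93 in Het mice. Its monosome signals were 6.15 and 8.48 in WT mice and 5.20 and 6.81 in Het mice. Het lay below WT in whole muscle without overlap, whereas the genotypes overlapped in polysomes and monosomes. The array with the lowest signal, whole muscle of Het mouse 2, is the one on which this probe was not well above background.

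Alas2 followed alpha globin. Whole-muscle signals were 7.18, 6.03 and 7.02 in WT and 6.72, 6.85 and 6.87 in Het mice. Polysome signals were 7.87, 8.75 and 7.51 in WT and 6.95, 6.29 and 6.72 in Het mice. Monosome signals were 7.72 and 8.76 in WT and 7.10 and 7.05 in Het mice. Het was below WT in polysomes and in monosomes without overlap, and the WT polysome arrays were all above whole muscle.

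Redrum differed from the haemoglobins in whole muscle. Its whole-muscle signals were 3.59, 5.12 and 4.83 in WT and 5.14, 6.64 and 6.58 in Het mice, so that every Het array was above every WT array. Polysome signals ran the other way, at 5.70, 6.36 and 5.93 in WT and 5.10, 4.31 and 5.39 in Het mice. Monosome signals were 6.63 and 7.03 in WT and 6.43 and 6.09 in Het mice. The highest Redrum signal was on WT monosome 2 and the lowest on whole muscle of WT mouse 1.

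**Figure D1:**
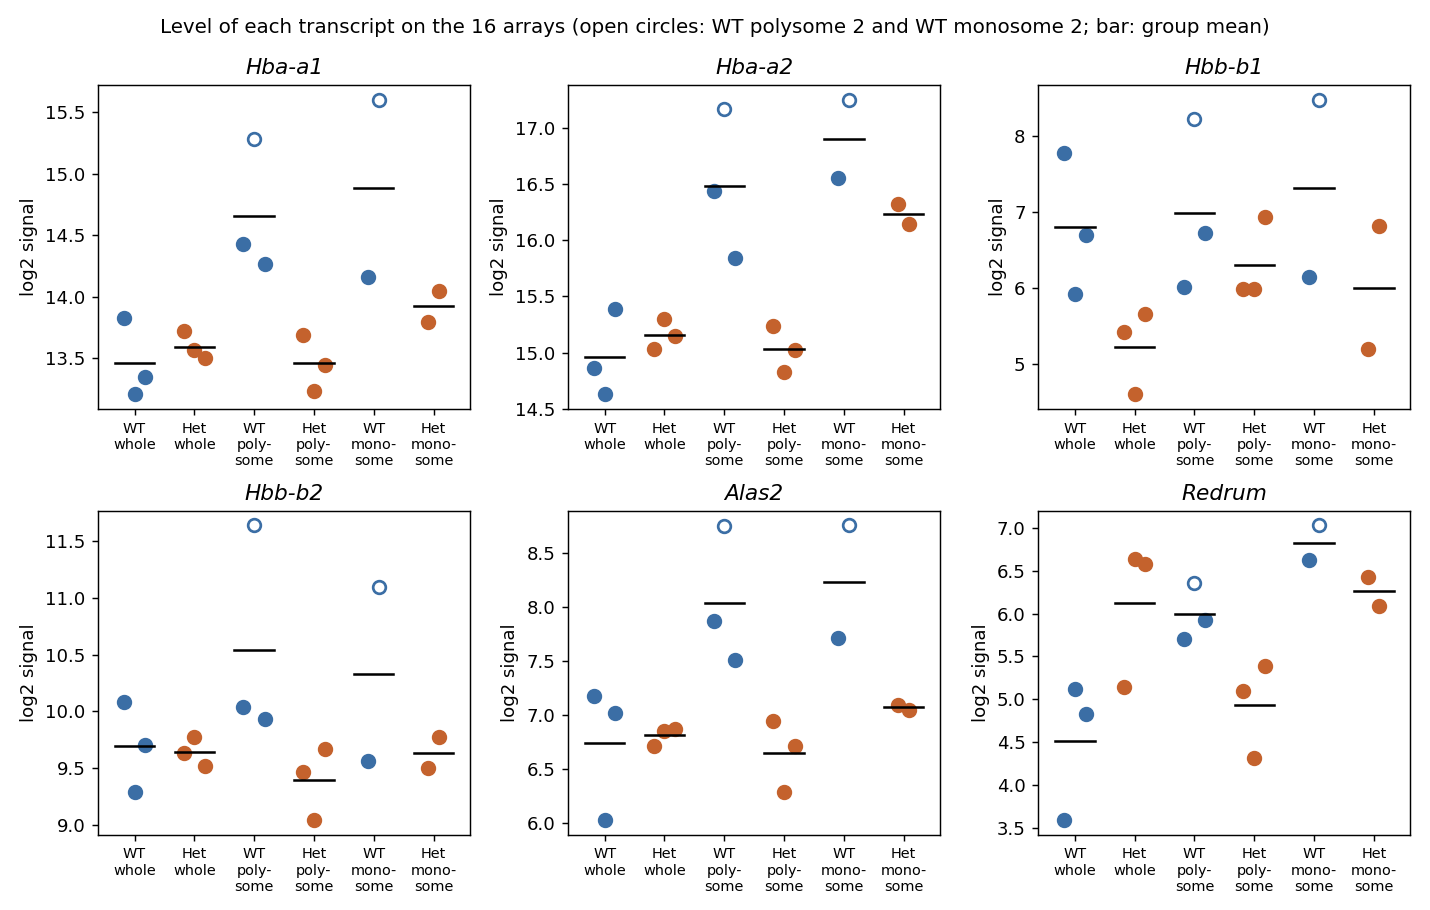
Log2 signal (vertical axis, a separate scale for each gene) of the 6 transcripts on every array, by group (horizontal axis; WT blue, Het orange; bars are group means, open circles WT polysome 2 and WT monosome 2). The 3 Het polysome arrays sit below the 3 WT polysome arrays for all genes but Hbb-b1, and the open circles are the 2 highest arrays for every gene but Redrum.

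Ranked by mean level, the WT monosome group was the highest for 5 of the 6 genes and the WT polysome group for Hbb-b2. With WT polysome 2 and WT monosome 2 left out, it was the highest for 3 of 6, resting on 1 array, with WT polysomes first for Hba-a1 (14.35 against 14.16 in WT monosomes) and Hbb-b2, and WT whole muscle first for Hbb-b1 (6.80 against 6.15). The order below is that over all arrays. For Hba-a1 the mean was 14.88 ± 1.02 (SD, n = 2) in WT monosomes, 14.66 ± 0.543 (SD, n = 3) in WT polysomes and 13.92 ± 0.176 (SD, n = 2) in Het monosomes. The other 3 groups, at 13.60 ± 0.113, 13.46 ± 0.328 and 13.46 ± 0.225 (SD, n = 3 each), for Het whole muscle, WT whole muscle and Het polysomes, did not differ beyond their spread. For Alas2, WT monosomes at 8.24 ± 0.735 (SD, n = 2) and WT polysomes at 8.04 ± 0.637 (SD, n = 3) did not differ beyond their spread, and Het monosomes followed at 7.08 ± 0.034 (SD, n = 2). For Hbb-b1 and Hbb-b2, neighbouring groups in the order overlapped at every step.

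Whether erythroid transcripts sat on polysomes to a different extent than in whole muscle, over both genotypes, was tested on the 6 polysome minus whole-muscle ratios per mouse. All 6 genes had a positive mean and 0 of 6 were called by limma at an adjusted p under 0.05, where 24.7% of the 20250 tested probes were called (13.1% as higher in polysomes). At an unadjusted p under 0.05, Hba-a1 and Hba-a2 passed, as did 38.4% of all probes. The mean log2 ratio was 0.70 (SE 0.27, adjusted p = 0.103) for Hba-a2, 0.53 (SE 0.215, adjusted p = 0.117) for Hba-a1 and 0.57 (SE 0.307, adjusted p = 0.216) for Alas2. Hbb-b1 gave 0.63 (adjusted p = 0.358), Hbb-b2 0.30 (0.527) and Redrum 0.15 (0.748). The median was 0.55 over the 6 genes and 0.10 over all tested probes. Without WT polysome 2, the ratios fell to 0.31 for Hba-a1, 0.44 for Hba-a2, 0.21 for Alas2, 0.10 for Hbb-b1 and -0.08 for Hbb-b2, while Redrum was at 0.21, and again 0 of 6 were called. Hbb-bt, the beta globin gene outside the chosen 6, was higher in polysomes by 0.93 (SE 0.268, limma adjusted p = 0.0426, higher in 5 of 6 mice), and by 0.64 without WT polysome 2 (adjusted p = 0.0352), although 9 of the alternative settings lost this call.

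Alpha globin and Redrum rose in monosomes over whole muscle, and the call of the 3′ alpha globin probe was the one least often lost among the 3. In the fit of all 16 arrays, 3 of 6 genes were called as higher, where 10.8% of all tested probes were called in that direction and 24.9% in either. Of these 3, Hba-a1 and Hba-a2 both read alpha globin and are not separate genes. Hba-a2 was 2.84-fold higher (log2 1.50, SE 0.267, limma adjusted p = 0.00291), higher in 4 of 4 mice by 0.99 to 2.61. Redrum was 2.34-fold higher (log2 1.23, SE 0.375, limma adjusted p = 0.034), higher in 3 of 4 mice. Hba-a1 was 1.83-fold higher (log2 0.87, SE 0.292, limma adjusted p = 0.0459), higher in 4 of 4 mice. Alas2 missed the threshold at 0.88 (SE 0.311, adjusted p = 0.0539), although it too was higher in 4 of 4 mice, and the beta globin probes gave 0.64 (Hbb-b1) and 0.32 (Hbb-b2), with adjusted p = 0.394 and 0.521. The median was 0.87 over the 6 genes and -0.09 over all probes.

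With WT polysome 2 and WT monosome 2 left out, Hba-a2 was called at 1.33 (limma adjusted p = 0.00125), Hba-a1 was not at 0.51 (adjusted p = 0.0607) and Redrum was not at 1.13 (adjusted p = 0.0774). Alas2 was then at 0.62, Hbb-b1 at 0.06 and Hbb-b2 at -0.07, none of them called. With array brightness as a term, Hba-a2 was called at 1.22 (adjusted p = 0.00842), whereas Hba-a1 and Redrum, both at 0.72, were not (adjusted p = 0.146 and 0.0992). With mouse as a block, 4 of 6 genes were called, where 7253 of the 20250 tested probes were called, against 5046 without the block. Of 17 alternative settings, 12 lost the Hba-a1 call, 8 the Redrum call and 2 the Hba-a2 call. Leaving out WT mouse 1 or 2, or Het mouse 1 or 3, leaves 1 monosome array in that genotype, so only sizes are given for leaving out mice. With each mouse left out in turn, the difference ran from 1.25 to 1.65 for Hba-a2. It ran from 0.90 to 1.43 for Redrum and from 0.45 to 1.32 for Hba-a1.

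Between the 2 ribosome fractions, Redrum and the 3′ alpha globin probe were lower in polysomes than in monosomes. The log2 difference was -1.08 for Redrum (SE 0.375, limma adjusted p = 0.0497) and -0.81 for Hba-a2 (SE 0.267, limma adjusted p = 0.0418), both lower in 4 of 4 mice. These 2 of 6 genes were called, against 9.07% of all probes called as lower and 26% called in either direction. The other 4 genes gave -0.34 (Hba-a1), -0.31 (Alas2), -0.02 (Hbb-b1) and -0.02 (Hbb-b2), with adjusted p from 0.379 to 0.986. Within mice the Hba-a2 difference was -1.07 and -1.13 in the Het mice and -0.11 and -0.08 in the WT mice. Without the 2 named WT arrays, Hba-a2 was called at -0.80 (adjusted p = 0.0144) and Redrum was not at -1.07 (adjusted p = 0.0832). The others were at -0.13 (Hba-a1), -0.23 (Alas2), 0.26 (Hbb-b1) and 0.09 (Hbb-b2), and were not called. Of 17 alternative settings, 11 lost the Redrum call and 8 the Hba-a2 call. Leaving out any Het mouse, or WT mouse 3, gave 0 called. No gene was called under percentile scaling or with brightness as a term, where the differences were -0.27 for Hba-a2 and -0.12 for Redrum in the latter.

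In monosomes, the one Het against WT contrast not used to choose the genes, all 6 genes had lower means in Het mice and 0 of 6 were called by limma, where 0.499% of all probes were called. At an unadjusted p under 0.05 Alas2 passed, as did 33% of all probes, and the methods' t-test called 0 of 6 after adjustment. Alas2 differed by -1.16 (SE 0.482, adjusted p = 0.126) and Hba-a1 by -0.95 (SE 0.452, adjusted p = 0.158). Hba-a2 differed by -0.67 (adjusted p = 0.249), Hbb-b1 by -1.31 (0.29), Hbb-b2 by -0.69 (0.382) and Redrum by -0.57 (0.481). The genotypes did not overlap for 4 of 6 genes, all lower in Het, with 2 arrays per genotype, and 50.4% of all probes did not overlap (23.7% lower in Het). The median was -0.82 over the 6 genes and 0.10 over all probes. Without WT monosome 2, 1 WT array remained and the differences were -0.23 for Hba-a1, -0.32 for Hba-a2, -0.14 for Hbb-b1, 0.08 for Hbb-b2, -0.64 for Alas2 and -0.36 for Redrum. Without WT mouse 1, the only WT monosome array left is WT monosome 2, one of the 2 arrays that stand apart, so no count of called genes is given for that fit. With each mouse left out in turn, the differences ran from -1.67 to -0.23 for Hba-a1, -1.02 to -0.32 for Hba-a2 and -1.68 to -0.64 for Alas2. Those of Redrum ran from -0.77 to -0.36, of Hbb-b1 from -2.47 to -0.14 and of Hbb-b2 from -1.46 to 0.08.

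**Figure D2:**
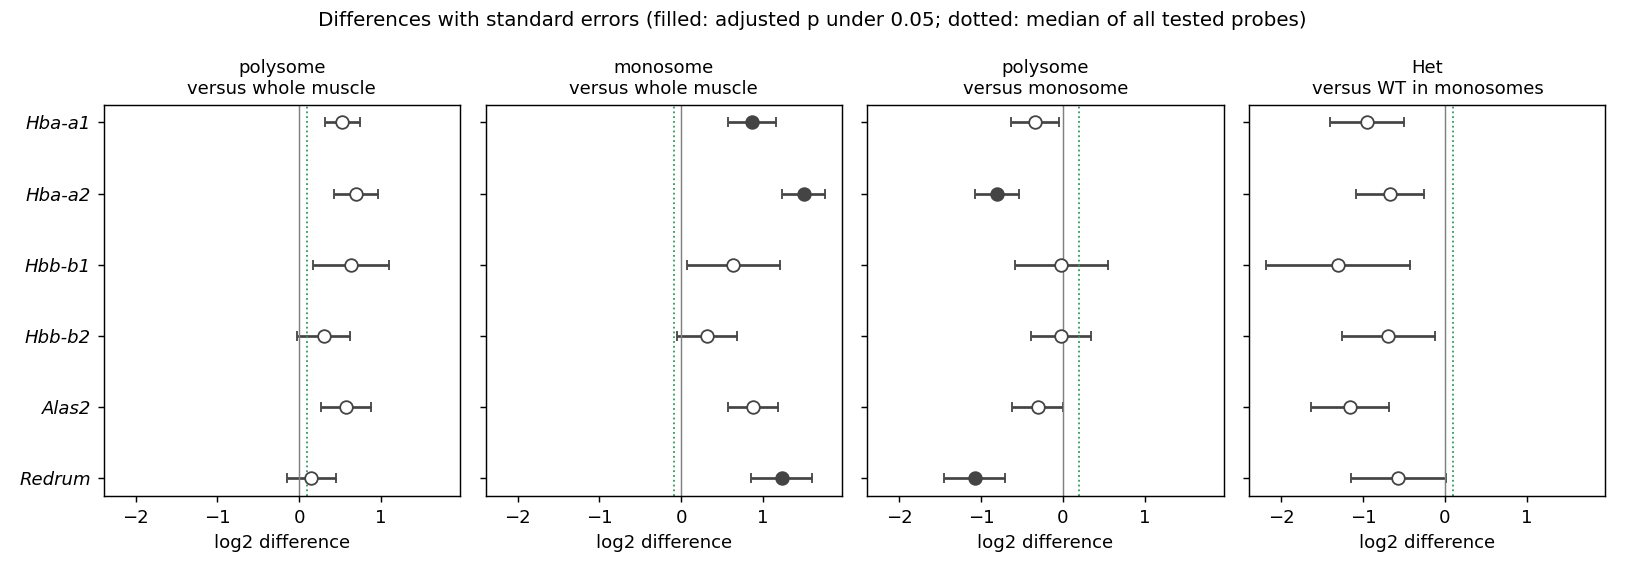
Log2 difference (horizontal axis, point with its standard error from limma) of the 6 genes in the 4 tested comparisons, filled where the adjusted p was under 0.05 and with a dotted line at the median of all tested probes. Filled points are Hba-a1, Hba-a2 and Redrum in monosomes over whole muscle and Hba-a2 and Redrum in polysomes against monosomes.

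The remaining Het against WT differences chose the genes and are described without a test. Of all 20250 probes, limma and the methods' t-test called 0 after adjustment in whole muscle, polysomes and loading, and at an unadjusted p under 0.05 limma passed 5.73%, 7.52% and 17% of them. In whole muscle the Het minus WT difference was 1.61 (SE 0.475) for Redrum and -1.57 (SE 0.721) for Hbb-b1, and these 2 of 6 did not overlap between genotypes. Hba-a1, Hba-a2, Hbb-b2 and Alas2 differed by 0.14, 0.19, -0.04 and 0.07 and overlapped. Of all probes, 13.6% did not overlap in this contrast (8.32% lower and 5.28% higher in Het). Brightness moved with the genotypes here, at 42.3 to 150 on the WT and 13.5 to 33 on the Het whole-muscle arrays, and with brightness as a term the Redrum difference was 0.32 and the Hbb-b1 difference -1.84. In the same setting Hba-a1, Hba-a2 and Alas2 turned to -0.23, -0.52 and -0.43, and Hbb-b2 moved to -0.77, so the direction of the alpha globin and Alas2 differences in whole muscle depended on this setting. The Redrum signal was lowest on the brightest of these arrays (WT mouse 1) and highest on the dimmest (Het mouse 2).

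In polysomes the differences were -1.46 (SE 0.337) for Hba-a2, -1.39 (SE 0.394) for Alas2, -1.20 (SE 0.369) for Hba-a1, -1.15 (SE 0.467) for Hbb-b2 and -1.06 (SE 0.475) for Redrum. These 5 of 6 did not overlap, and Hbb-b1 at -0.68 (SE 0.721) did. Of all probes, 21.7% did not overlap (8.74% lower in Het). Without WT polysome 2 the differences were -1.12 for Hba-a2, -1.03 for Alas2, -0.89 for Hba-a1, -0.88 for Redrum, -0.60 for Hbb-b2 and -0.07 for Hbb-b1. Brightness ran from 24.1 to 66.1 on the WT and from 63.1 to 106 on the Het polysome arrays, and with it as a term the differences were -1.16 for Alas2, -1.13 for Hba-a2, -1.03 for Hba-a1, -0.81 for Hbb-b2, -0.56 for Hbb-b1 and -0.47 for Redrum. The mean over the 4 haemoglobin probes was -1.12 with all arrays and -0.67 without WT polysome 2. Hbb-bt differed by -0.96 (SE 0.384, limma adjusted p = 0.619) without overlap.

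Polysome loading, the polysome minus whole-muscle ratio of each mouse, set the genotypes apart for 4 genes. For Hba-a1 it was 0.60, 2.07 and 0.93 in WT mice 1, 2 and 3 and -0.03, -0.33 and -0.06 in the Het mice. For Hba-a2 it was 1.58, 2.54 and 0.45 in WT and 0.22, -0.47 and -0.13 in Het mice. The alpha globin ratio was thus above 0 in every WT mouse at both probes and below 0 in every Het mouse at the inner probe.

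For Alas2 loading was 0.69, 2.72 and 0.49 in WT mice, and 0.23, -0.56 and -0.15 in Het mice. For Redrum it was 2.11, 1.24 and 1.09 in WT mice and -0.04, -2.33 and -1.19 in Het mice, so that the signs were opposite in the genotypes. For Hbb-b2 it was -0.03, 2.35 and 0.23 in WT and -0.17, -0.73 and 0.14 in Het mice, which overlap. For Hbb-b1 it was -1.77, 2.29 and 0.03 in WT and 0.57, 1.39 and 1.27 in Het mice. WT mouse 2 had the highest ratio of all mice for every gene but Redrum.

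**Figure D3:**
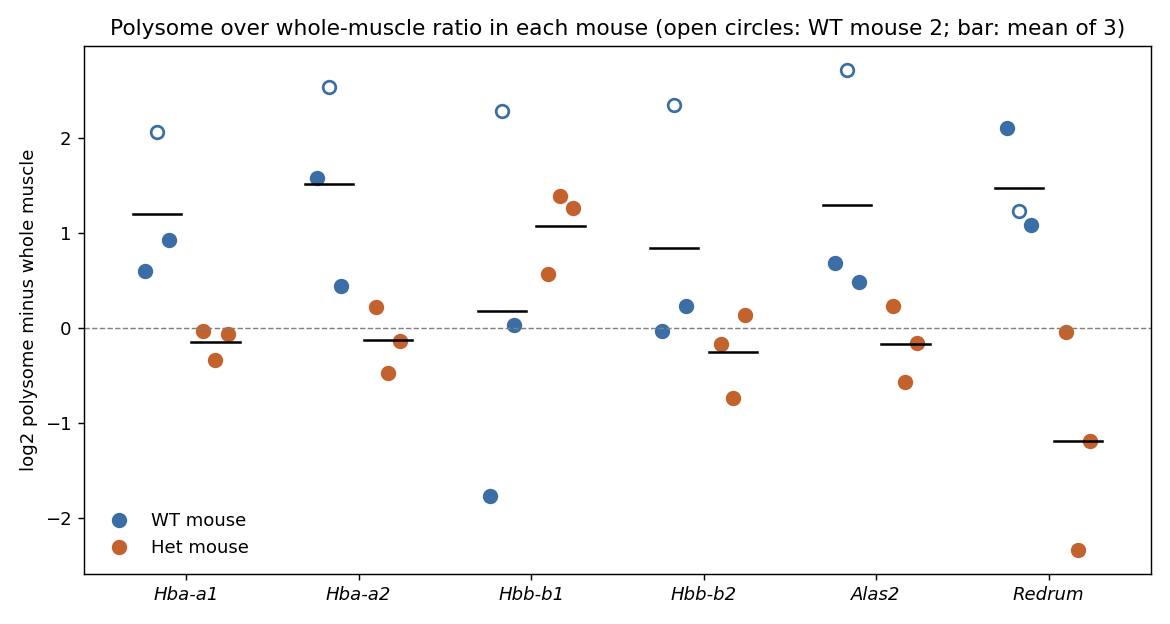
Log2 polysome minus whole-muscle ratio (vertical axis) in each of the 6 mice, for the 6 genes (horizontal axis; WT blue, Het orange; bars are means of 3 mice, open circles WT mouse 2). For Hba-a1, Hba-a2, Alas2 and Redrum the 3 WT mice lie above the 3 Het mice, and for Hbb-b1 and Hbb-b2 the genotypes overlap.

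The Het minus WT difference in loading was -2.67 (SE 0.605) for Redrum, -1.65 (SE 0.54) for Hba-a2, -1.46 (SE 0.615) for Alas2, -1.34 (SE 0.431) for Hba-a1, -1.10 (SE 0.647) for Hbb-b2 and 0.89 (SE 0.933) for Hbb-b1. The first 4 of these did not overlap, and 25.3% of all probes did not (11.9% lower in Het). The median was -1.40 over the 6 genes and 0.16 over all probes. Without WT polysome 2 the differences were -2.79 for Redrum, -1.14 for Hba-a2, -0.90 for Hba-a1, -0.75 for Alas2, -0.35 for Hbb-b2 and 1.95 for Hbb-b1. The mean over the 4 haemoglobin probes moved from -0.80 to -0.11, and the Hbb-b1 probe, whose WT whole-muscle signal was high, had the opposite sign to the other 3. With brightness as a term, Hba-a2 differed by -0.06, Hbb-b2 by -0.13, Alas2 by -0.19, Redrum by -0.91, Hba-a1 by -0.93 and Hbb-b1 by 0.41.

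**Figure D4:**
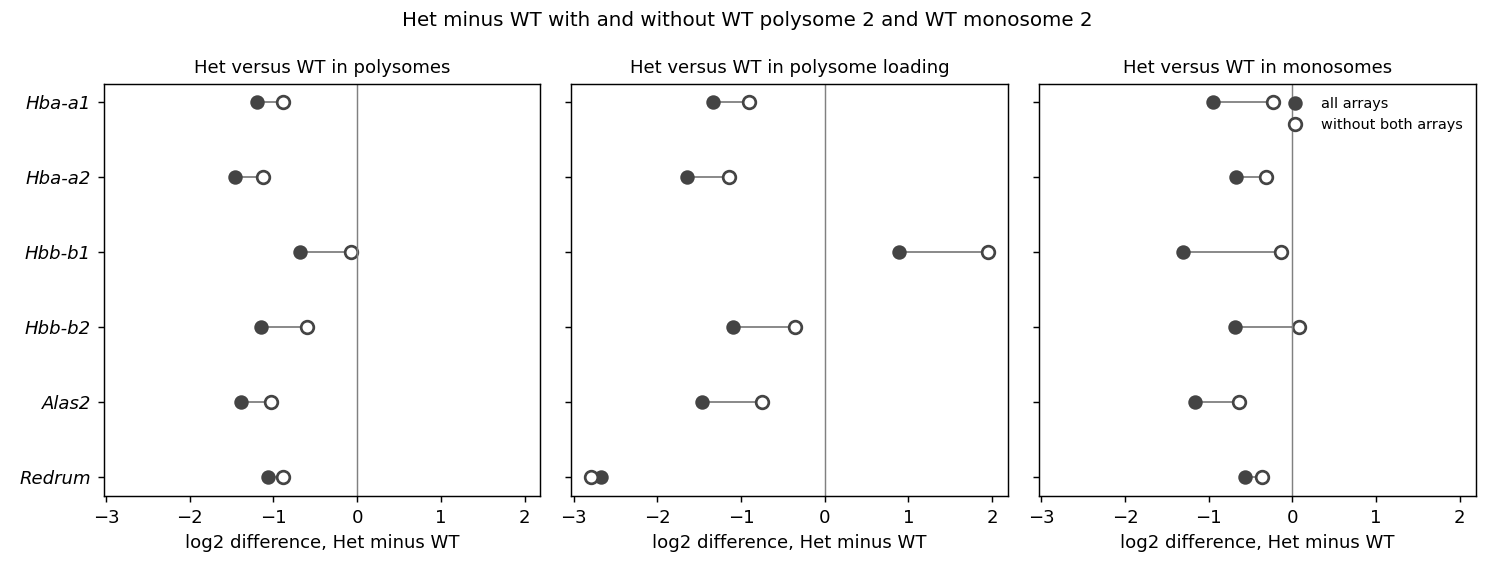
Het minus WT log2 difference (horizontal axis) of the 6 genes in polysomes, in polysome loading and in monosomes, with all arrays (filled) and without WT polysome 2 and WT monosome 2 (open). The open points lie nearer to 0 for most genes, and in loading Redrum (-2.67 and -2.79) and Hbb-b1 (0.89 and 1.95) lie farther from it.

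The 5′ to 3′ measure of an array and the level of the globin probes were high together on the 2 named arrays. At the 5′-end probe (Hbb-b1), WT polysome 2 and WT monosome 2 read 8.22 and 8.48, and the other 14 arrays read 4.60 to 7.78. At the 3′ probe (Hba-a2) they read 17.17 and 17.25, and the other 14 arrays read 14.63 to 16.55. These probes read different genes, beta and alpha globin, so no globin transcript was read at both ends. The part of the 5′ to 3′ shift in these signals and in the Het against WT differences was not tested beyond leaving the arrays out.

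**Figure D5:**
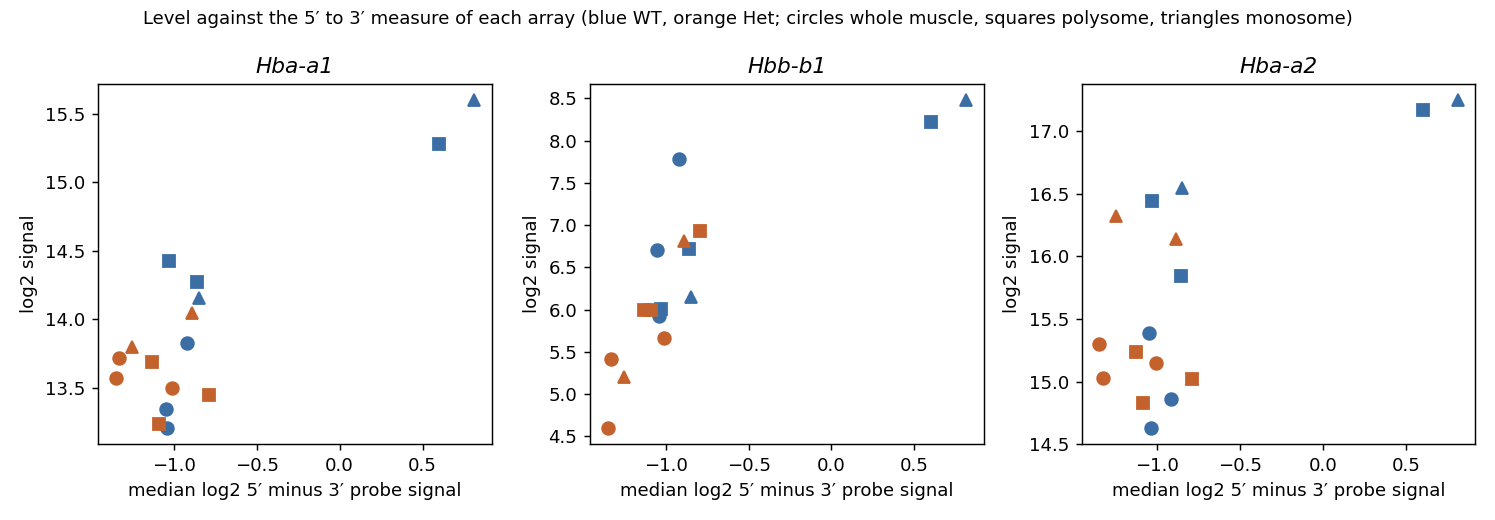
Log2 signal (vertical axis) of the inner alpha globin probe (Hba-a1), the 5′-end beta globin probe (Hbb-b1) and the 3′ alpha globin probe (Hba-a2) against the median log2 5′ minus 3′ probe signal of each of the 16 arrays (horizontal axis; WT blue, Het orange; circles whole muscle, squares polysomes, triangles monosomes). WT polysome 2 (0.60) and WT monosome 2 (0.81) lie apart from the other 14 arrays (-1.35 to -0.79) and are highest in all 3 panels.

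Across the 16 arrays, which share mice, slides and the 2 named arrays, Hba-a1 and Alas2 rose and fell together (Pearson r = 0.958, and 0.896 over the 14 arrays without those 2). Hba-a1 and Hba-a2 gave r = 0.891 (0.797 over 14 arrays), and Hba-a2 and Alas2 r = 0.908 (0.814). Hbb-b1 and Hba-a2 gave r = 0.451 over 16 and -0.0853 over 14 arrays, and Redrum and Hbb-b1 r = -0.0622 and -0.568. Outside the chosen genes, the 5 most like the mean of the haemoglobin probes were AI118078, Sptbn1, Meis3, Ahnak and TC1719686 (r = 0.923 to 0.945), and each fell to 0.729 to 0.764 over 14 arrays. Sptbn1 encodes a beta spectrin. For Alas2, apart from the chosen genes, the nearest was Il3ra, a receptor chain for interleukin 3 (r = 0.936, and 0.932 over 14 arrays), then Atp13a1, Hyi, Cmip and Znhit2. For Redrum, 3 of the nearest 5 were probes named only by a locus, and the named genes were Camk4, a calcium-dependent kinase (r = 0.94, and 0.948 over 14 arrays), and Cr2, a complement receptor (0.938 and 0.935).

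Several defining red cell genes other than haemoglobin were not detected, and others were. Rhag, Ahsp (the alpha globin chaperone) and the regulators Gata1 and Klf1 were well above background on 0 of 16 arrays. Of 12 red cell membrane genes on the array, 5 were tested, of 10 red cell cytoplasm genes 4, and of 10 erythroid regulators 6. Ermap, Hemgn and Car2 were well above background on 16 of 16 arrays and Slc4a1 on 10. The log2 of the summed signal of the tested membrane genes lay at 8.61 to 9.33 in WT and 9.28 to 9.48 in Het polysomes. In whole muscle it lay at 8.91 to 9.26 in WT and 9.09 to 9.16 in Het mice. Slc4a1, whose product is the anion exchanger of the red cell membrane, was not well above background on either Het monosome array and was so on 1 of 2 WT monosome arrays, so no fold is given there (group means 3.51 in Het and 4.67 in WT, limma adjusted p = 0.0906). It differed between Het and WT by -0.04 in polysomes (limma adjusted p = 0.966). In whole muscle it was well above background on 1 of 3 Het arrays, so no difference is given there. Slc4a1 is given here after its values were seen. No gene of these 3 lists passed limma's adjusted threshold in any Het against WT comparison, with or without the 2 named arrays, and at an unadjusted p under 0.05 at most 2 genes of a list passed in any of them. That highest count, 2 of 5 membrane genes in monosomes (1 higher and 1 lower in Het), stands beside 33% of all probes passing there.

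Slc4a1 is given no difference between polysomes and monosomes, since it was well above background on only 1 of the 4 monosome arrays. Ermap, an erythroid membrane protein, was lower in polysomes than in monosomes (-0.90, adjusted p = 0.04). Tfrc, the transferrin receptor, was higher in polysomes than in monosomes by 1.30 (adjusted p = 0.0118) and lower in monosomes than in whole muscle by -0.95 (adjusted p = 0.0484). Zfpm1, the GATA1 partner, was higher in monosomes than in whole muscle by 0.71 (adjusted p = 0.0454). In polysomes over whole muscle, Hemgn was higher by 0.53 (adjusted p = 0.0374) and the carbonic anhydrase gene Car2 lower by -0.98 (adjusted p = 0.00774). With the 2 named arrays left out, Tfrc (1.31 and -1.19), Hemgn (0.51) and Car2 (-1.11) kept their calls, whereas Ermap (-0.74, limma adjusted p = 0.0744) and Zfpm1 (0.40, adjusted p = 0.0883) lost theirs.

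In monosomes over whole muscle, 6 of 12 haem synthesis genes were called as lower and 1 as higher, where 14.2% of all probes were called as lower and 10.8% as higher, with a list median of -0.84 against -0.09 over all probes. Tmem14c, a mitochondrial porphyrin transporter, was lower by -1.46 (limma adjusted p = 0.00038) and Alas1 by -1.45 (adjusted p = 0.00536), and Uros by -0.99 (adjusted p = 0.0324). Fech, ferrochelatase, which inserts iron into the porphyrin ring, was higher by 1.22 (adjusted p = 0.025). In polysomes over monosomes, Alas1 (1.65), Tmem14c (1.46) and Urod (1.36) were higher, and in polysomes over whole muscle only Urod passed (0.49, adjusted p = 0.048). With the 2 named arrays left out, 6 of 12 were again called as lower in monosomes than in whole muscle, against 17.1% of all probes, but the genes were not all the same. Uros (-0.63, limma adjusted p = 0.0754) left and Cpox (-1.07, adjusted p = 0.0098) entered, while among higher genes Fech (0.82, adjusted p = 0.0763) left and Slc25a37, a mitochondrial iron importer, entered (1.36, adjusted p = 0.00243). In polysomes over monosomes, 3 of 12 were called as higher and 0 as lower with all arrays, where 16.9% of all probes were called as higher and 9.07% as lower, and 6 as higher and 1 as lower (Slc25a37, -1.30, adjusted p = 0.00248) without the 2 named arrays, against 22.5% and 14.4% of all probes. In polysomes over whole muscle Urod (0.45, adjusted p = 0.0617) then lost its call and Fech gained one (0.66, adjusted p = 0.0182). Alas2, the erythroid form of the first enzyme, had a mean of 0.88 in monosomes over whole muscle, which missed the threshold.

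Of the other globins, myoglobin (Mb, the oxygen store of muscle) and cytoglobin (Cygb) were higher in polysomes than in whole muscle, by 0.72 (limma adjusted p = 0.0133) and 1.21 (adjusted p = 0.0094). Cygb was also higher in monosomes, by 1.07 (adjusted p = 0.0117). The embryonic globin genes and the theta genes on the array did not pass the filter on dim probes. These calls of Mb and Cygb held without the 2 named arrays (0.79, 1.05 and 0.84, limma adjusted p = 0.0099, 0.0154 and 0.0122). Between genotypes, 0 of the 3 tested genes (Mb, Cygb and Hbb-bt) were called by limma. At an unadjusted p under 0.05, 2 of 3 passed in polysomes, both lower in Het, where 7.52% of all probes passed. Cygb differed there by -0.96 (limma adjusted p = 0.585), as did Hbb-bt (adjusted p = 0.619), and without WT polysome 2 and WT monosome 2 they differed by -0.74 and -0.60.

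Markers of other cells that travel with blood or vessels moved with the fractions too. In polysomes over whole muscle, the platelet gene Pf4 (1.30, limma adjusted p = 0.00368), the neutrophil gene S100a9 (adjusted p = 0.00354, with no size given because 0 of 3 Het whole-muscle arrays were well above background) and 6 of 12 endothelial genes were called as higher and none of these lists' genes as lower, where 13.1% of all probes were called as higher. Without the 2 named arrays, 6 of 12 endothelial genes were called as higher, with Pf4 and S100a9 also called, against 14.3% of all probes. The endothelial genes were not all the same, as Vwf (0.55, limma adjusted p = 0.0603) left and Cdh5 (0.70, adjusted p = 0.0317) entered. In monosomes over whole muscle, the platelet gene Gp1bb (1.57, limma adjusted p = 0.0212) and the granule gene Camp (1.52, adjusted p = 0.0293) were higher, and neither was called without the 2 named arrays (1.08 and 0.93, adjusted p = 0.0544 and 0.0975). Of 9 lymphocyte genes, 3 were tested and 0 were called in any of these comparisons, while at an unadjusted p under 0.05 the count was also 0. Without the 2 named arrays 1 lymphocyte gene, Cd3e, was called as lower in polysomes than in whole muscle (-0.57, limma adjusted p = 0.0481).

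Between genotypes, the summed platelet signal (log2) lay at 9.61 to 12.12 in WT and 9.17 to 9.81 in Het polysomes, and the endothelial sum at 12.76 to 13.77 and 12.08 to 13.25, overlapping ranges. The neutrophil sum lay at 12.29 to 12.72 in WT and 11.23 to 12.56 in Het polysomes, which overlap as well. Of the 5 neutrophil genes tested, 2 had higher means in Het whole muscle and 0 in Het polysomes, and 0 were called. In whole muscle Camp differed by 0.80, Csf3r by 0.10 and Elane by -0.15 (limma adjusted p of 0.97 or above). Lcn2 was well above background on 1 of 3 Het whole-muscle arrays, so no size is given there. Its group means were 4.98 in Het and 5.89 in WT whole muscle (limma adjusted p = 0.926). S100a9 cleared background on 0 of 3 whole-muscle arrays of Het mice and was at least 5.03-fold lower there than in WT (group means 2.53 and 6.51, limma adjusted p = 0.849), where the WT arrays ran from 3.33 to 9.41. This bound sets each Het array at the lowest signal well above background on it, where the gene's own was lower. That floor had a mean of 4.18, above the lowest WT array (3.33), so the bound is one of group means and does not hold for that WT mouse. In polysomes S100a9 differed by -3.36, Lcn2 by -1.19, Camp by -0.86, Csf3r by -0.42 and Elane by -0.19 (limma adjusted p from 0.657 to 0.883). Without the 2 named arrays, the S100a9 and Lcn2 differences in polysomes were -4.85 and -1.68 (limma adjusted p = 0.191 and 0.214). Of the 10 muscle fibre genes, 5 were lower in monosomes than in whole muscle and 0 higher (6 and 0 without the 2 named arrays), where 14.2% of all probes were lower, with differences of -2.09 for Mylpf, -1.89 for Ttn, -1.80 for Ckm and -1.16 for Acta1. Muscle fibre markers were abundant in all groups, as the labelled tissue requires. The part of these cell types in the erythroid differences was not tested.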

How the data were processed

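Whole-muscle, polysome and monosome RNA was labelled with Cy3 and hybridised to 1-colour Agilent arrays, 16 in all. The deposited spot intensities were background-subtracted and detrended by Feature Extraction 11.0.1.1, per the file headers. The authors also deposited a log2 table, quantile-normalized per their methods, which served as an alternative. From the processed intensities, log2 values were quantile-normalized over 16 arrays after removal of outlier-flagged spots and averaging of spots per probe. The 20250 probes that passed the filter on dim probes (15903 gene names) were tested with limma 3.58.1 (R 4.3.3), p-values being adjusted by Benjamini and Hochberg's method across these probes and read at 0.05. Polysome over whole-muscle ratios were formed per mouse, and other comparisons used a fit of group means. The number of arrays limits the precision.

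The 6 genes and all 10 gene lists (other globins, haem synthesis, red cell membrane, red cell cytoplasm, erythroid regulators, platelet, neutrophil, lymphocyte, endothelium, muscle fibre) were chosen with earlier results of these data known. Of each list, up to 4 genes past the threshold were named per comparison, by size, and the 5 most correlated genes were named for the haemoglobin mean, Alas2 and Redrum. The design gives every kind of RNA from each mouse, so replicate numbers were taken as mice. The correlation of polysome and whole-muscle deviations within a mouse was 0.0464 to 0.481. Promoter windows came from RefSeq (GRCm38.p6). Scripts were tested on simulated data. Some genes of these lists are not reported here.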

Additional observations from a re-analysis of the deposited data

Results flagged for a closer look

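The polysome over whole-muscle ratio of Hba-a1 was above 0 in every WT mouse and below 0 in every Het mouse, with a Het minus WT difference of -1.34. The ratio of Redrum had the same opposed signs, with a difference of -2.67. The Het ratios were small for Hba-a1, at -0.03, -0.33 and -0.06, and were -0.04, -2.33 and -1.19 for Redrum. With brightness as a term the differences were -0.93 for Hba-a1 and -0.91 for Redrum. Of all probes, 25.3% did not overlap between genotypes in this contrast, and the share with opposed signs was not counted. Neither difference was tested, because the genes were chosen with this contrast known.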

How the results depend on the processing

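For polysomes over whole muscle, 0 of 6 genes were called, against 2 where probes had to be well above background on all arrays, and 0 to 1 when leaving out each mouse. That stricter filter also changes the set of all probes, so its count of 2 is not compared with that of the main fit. When leaving out each mouse, 2319 to 5535 of all probes were called, against 4995 in the main fit. For monosomes over whole muscle, 3 were called, against 1 with no filter, 0 within slide 1, 1 with brightness as a term, 1 without WT polysome 2 and WT monosome 2 (an alternative chosen after seeing the data), and 0 to 5 when leaving out each mouse. For polysomes against monosomes, 2 were called, against 0 under 75th percentile scaling, with no filter, within slide 1 or with brightness as a term, 1 without both arrays, and 0 to 2 when leaving out each mouse. For Het against WT in monosomes, 0 were called, against 1 within slide 2 and 0 to 3 when leaving out each mouse. Slide 2 holds 1 monosome array per genotype, WT monosome 2 and Het monosome 3, and the count of 3 comes without WT mouse 1, where WT monosome 2 is the only WT array. Both rest on that array alone, with its spread assumed from the other groups. The mean Het minus WT difference of the haemoglobin probes in whole muscle, -0.32, was 0.10 where probes had to be well above background on all arrays, which drops Hbb-b1, -0.84 with brightness as a term, and -0.55 to -0.12 when leaving out each mouse. It was -1.36 to -0.67 in polysomes and -1.22 to -0.11 in loading when leaving out each mouse.

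With mouse as a replicate block, 4 genes were called in monosomes over whole muscle, Alas2 being added at an adjusted p of 0.0436 by limma, 2 in polysomes against monosomes and 0 in Het against WT monosomes. Of the 20250 tested probes, 7253, 7674 and 144 were called in these comparisons, in the same order. The haemoglobin mean kept its values of -0.32 in whole muscle and -1.12 in polysomes. Without the pairing, the ratios gave 0 called and a loading difference of -0.80. The block turned polysome against monosome differences to 0.05 for Hbb-b1 and 0.02 for Hbb-b2.

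Small differences turned sign elsewhere, and the cause was not tested. In polysomes over whole muscle, Redrum was -0.01 under normexp, -0.16 within slide 1 and -0.14 to 0.43 when leaving out each mouse, and Hbb-b2 was -0.02 within slide 2, -0.08 without both arrays and -0.08 to 0.52 when leaving out each mouse. In monosomes over whole muscle, Hbb-b1 was -0.24 within slide 1 and -0.16 to 1.47 when leaving out each mouse, and Hbb-b2 was -0.14 within slide 1, -0.07 without both arrays and -0.17 to 0.80 when leaving out each mouse. In polysomes against monosomes, Hbb-b1 was 0.13 under percentile scaling, 0.88 within slide 1, 0.18 with brightness, 0.26 without both arrays and -0.36 to 0.26 when leaving out each mouse. Hbb-b2 there was 0.13, 0.62, 0.52, 0.09 and -0.28 to 0.13 in the same order. Within slide 1 Hba-a1 was 0.30 and Alas2 0.22, Alas2 was 0.06 with brightness, and Hbb-bt was -0.19 within slide 2. In Het against WT monosomes, Hbb-b2 was 0.08 without both arrays and -1.46 to 0.08 when leaving out each mouse. Hbb-bt in whole muscle was -0.34 within slide 1, -0.72 with brightness and -0.18 to 0.26 when leaving out each mouse, and in loading 0.16 with brightness. Normexp moved the median of all probes in polysomes against monosomes from 0.20 to 0.06.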
